A study of Mus musculus with 9 samples.

Results

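The MYC and MAX network genes are 10 of the 37273 genes that GENCODE release M1 places on the mouse genome build mm9 (NCBIM37). They were taken by name as Myc, Mycn, Mycl1, Max, Mxd1, Mxd3, Mxd4, Mxi1, Mnt and Mlx, and all 10 symbols were found, Mycl1 being the older symbol of Mycl. All 10 are protein-coding, and none was chosen by a measured value, though earlier results of these data were known when they were chosen. For each gene the BAP1 peaks were taken whose middle lay within 1 kb of any of its annotated transcription start sites (TSSs), called gene-proximal, and all peaks inside the gene or within 50 kb of it, called peaks in reach. Distances are in bp from the TSS to the middle of the peak, and a minus sign means upstream.

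The peaks came from chromatin immunoprecipitation and sequencing (ChIP-Seq) of BAP1 in Ba/F3, a murine line of B cell precursors that grows on interleukin-3, here from WEHI conditioned medium. Wild-type Ba/F3 cells were precipitated with 52.8 µg of an antibody against BAP1 itself. Ba/F3 cells that stably express murine BAP1 with a triple FLAG tag, kept under puromycin, were precipitated with 5 µg of the anti-FLAG M2 antibody, so in those cells the tagged protein was present beside the native one. Each precipitation was sequenced 1 time, with no replicate, and both entered 1 combined list of 13164 peaks, each 200 bp wide. The list gives no height, score or p-value and does not say which antibody gave a peak, and the sequencing depth behind it is unknown. The other 7 of the 9 samples, namely 4 input DNAs and 3 precipitations of H2AK119ub from wild-type cells and from the Bap1 knockout clones, were not analysed here as separate data. Expression was not measured in these samples, so neither the transcript level of any gene below nor the identity of the line by its markers could be checked.

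MYC proteins bind DNA only as dimers with MAX, mainly at the E-box CACGTG, where they raise transcription of genes for ribosome production, metabolism and cell division. The MXD proteins and MNT compete with MYC for MAX and bring in the SIN3 corepressors and histone deacetylases. MLX pairs either with some of these repressors or with the glucose-sensing MONDO proteins. BAP1 removes ubiquitin from histone H2A together with an ASXL protein, and it also binds HCF1, a cofactor that works with the zinc finger protein Ronin and with E2F factors and that MYC binds as well.

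A gene-proximal BAP1 peak was found at 9 of the 10 genes. Among all annotated genes 26.2% had one, and among the 22367 protein-coding genes 39.6% had one. By role, 2 of 3 MYC family genes, Max, all 5 genes of the MXD and MNT repressors, and Mlx had such a peak, and Mycl1 was the gene without one. No test was made of these counts, since the 10 genes are a chosen group and the list has no replicate. A background restricted to genes expressed in Ba/F3 was not formed, so how much of the difference from all genes lies in expression was not tested.

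**Figure D1:**
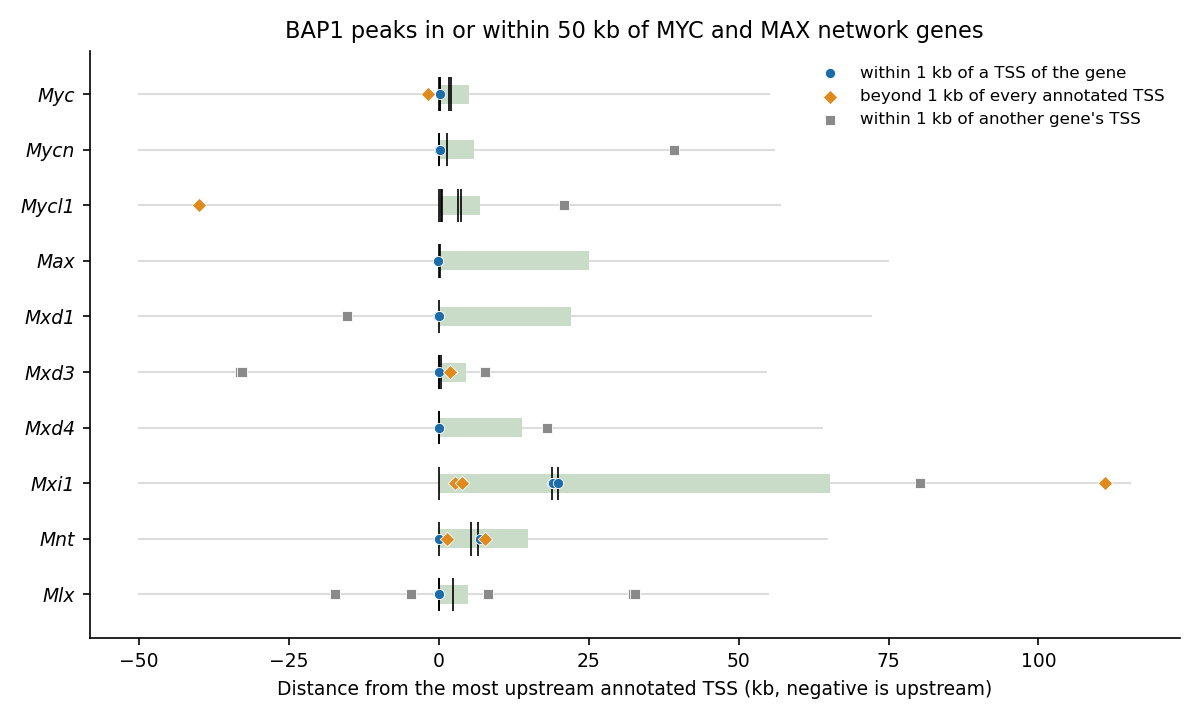
BAP1 peaks of the combined list along the 10 genes, plotted in kb from the most upstream annotated TSS with the direction of transcription to the right. Green bars are the genes, black ticks are their TSSs, grey lines mark the gene and 50 kb on either side, and each symbol is 1 peak. Circles lie at or near a tick in 9 of the 10 genes, Mycl1 has none, and most of the squares, which are peaks at other genes' TSSs, lie outside the bars.

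The promoter peaks were read from the mm9 genome and searched on both strands for short motifs. The sequences below are those peaks, or the stretch of them that lies outside annotated exons, and they show where the searched letters stand in each. Each is written 5′ to 3′ along the strand of its gene, and the matched motifs are in capitals, whichever strand they lie on. The motifs were the E-box CACGTG, the ETS site CCGGAAG, the GC box GGGCGG bound by SP and KLF proteins, the NFY site CCAAT, the cAMP response element TGACGTCA, the NRF1 site, the YY1 site AAGATGGC, the E2F sites TTTCCCGC and TTTGGCGC, the core ACTACA of the Ronin and HCF1 element, and the PU.1 site GAGGAAGT. Copies of the GC box may overlap each other, and GC boxes and CCAAT may abut. For Max the whole peak is shown (chr12:78063251-78063450, minus strand), with its 3 ACTACA cores.
Max: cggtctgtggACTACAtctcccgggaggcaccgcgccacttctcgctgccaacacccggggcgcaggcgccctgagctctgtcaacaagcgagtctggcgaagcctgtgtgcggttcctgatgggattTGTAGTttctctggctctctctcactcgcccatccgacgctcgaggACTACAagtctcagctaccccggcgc
For Mlx (chr11:100948466-100948590, plus strand) and Mnt (chr11:74644303-74644421, plus strand) the stretch upstream of the first TSS holds both an E-box and an ACTACA core.
Mlx: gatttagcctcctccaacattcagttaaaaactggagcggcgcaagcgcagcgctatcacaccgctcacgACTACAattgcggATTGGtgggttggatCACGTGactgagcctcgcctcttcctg
Mnt: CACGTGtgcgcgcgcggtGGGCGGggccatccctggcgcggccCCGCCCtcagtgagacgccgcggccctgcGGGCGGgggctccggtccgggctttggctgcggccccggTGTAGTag
For Mxi1 the stretch upstream of its second TSS (chr19:53403780-53403902, plus strand) has an ACTACA core between GC boxes.
Mxi1: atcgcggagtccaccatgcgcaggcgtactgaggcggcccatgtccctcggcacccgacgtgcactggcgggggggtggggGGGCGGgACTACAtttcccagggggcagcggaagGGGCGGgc
For Mxd3 (chr13:55431120-55431286, minus strand) the stretch carries 8 GC boxes, and the peak further from the Mxd1 TSS (chr6:86619172-86619371, minus strand) carries 4 GC boxes with 3 CCAAT sites.
Mxd3: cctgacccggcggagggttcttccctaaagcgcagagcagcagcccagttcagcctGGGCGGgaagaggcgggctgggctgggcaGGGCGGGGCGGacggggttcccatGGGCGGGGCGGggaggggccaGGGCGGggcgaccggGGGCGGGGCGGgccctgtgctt
Mxd1: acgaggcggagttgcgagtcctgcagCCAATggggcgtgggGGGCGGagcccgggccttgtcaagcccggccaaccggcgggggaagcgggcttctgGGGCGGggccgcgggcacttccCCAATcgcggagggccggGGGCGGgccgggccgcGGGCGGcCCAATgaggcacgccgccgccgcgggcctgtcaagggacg
For Mxd4 (chr5:34530370-34530534, minus strand) the CCAAT sites lie on the other strand and read ATTGG.
Mxd4: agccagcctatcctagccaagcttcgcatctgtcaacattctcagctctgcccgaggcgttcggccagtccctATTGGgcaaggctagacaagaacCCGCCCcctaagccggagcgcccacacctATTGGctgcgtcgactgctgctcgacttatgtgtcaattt
For Mycn (chr12:12948721-12948813, minus strand) an E2F site stands at the upstream end.
Mycn: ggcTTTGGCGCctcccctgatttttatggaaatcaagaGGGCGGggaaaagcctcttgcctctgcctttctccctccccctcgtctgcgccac
The Myc promoter peak lies within the first exon, so only the 30 bases around its E2F match (chr15:61817024-61817053, plus strand) and around its ACTACA core (chr15:61817100-61817129, plus strand), both on the opposite strand, are given.
Myc, E2F: gccgacgcttgGCGGGAAAaagaagggagg
Myc, ACTACA: tttctgactcgcTGTAGTaattccagcgag

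The 14 gene-proximal peaks of the 9 genes lay close to start sites. The middle of 13 of them was within 150 bp of the nearest TSS of its gene, and 9 of the 14 middles lay upstream. Over the whole list 76.5% of peaks were gene-proximal to some gene, 80.6% of those lay within 150 bp, 69.7% lay upstream, and their median distance was -28.0 bp. None of the 14 had the TSS of another gene within 1 kb, so by distance each can be given to its network gene alone. How many of all gene-proximal peaks have a second gene's TSS that near was not computed. Of the 32 distinct TSSs annotated to the 10 genes, 21 had a peak within 1 kb. The share over all annotated TSSs was not computed. TSSs of the same gene that lie close together share a peak, so they are not separate findings. At Mlx, for example, the TSSs at 100948591 and 100948618 are 27 bp apart. Of the 9 genes with a gene-proximal peak, 4 had 2 or more (Mycn, Mxd1, Mxi1 and Mnt). Among protein-coding genes with at least 1 such peak, 25.5% had 2 or more.

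**Figure D2:**
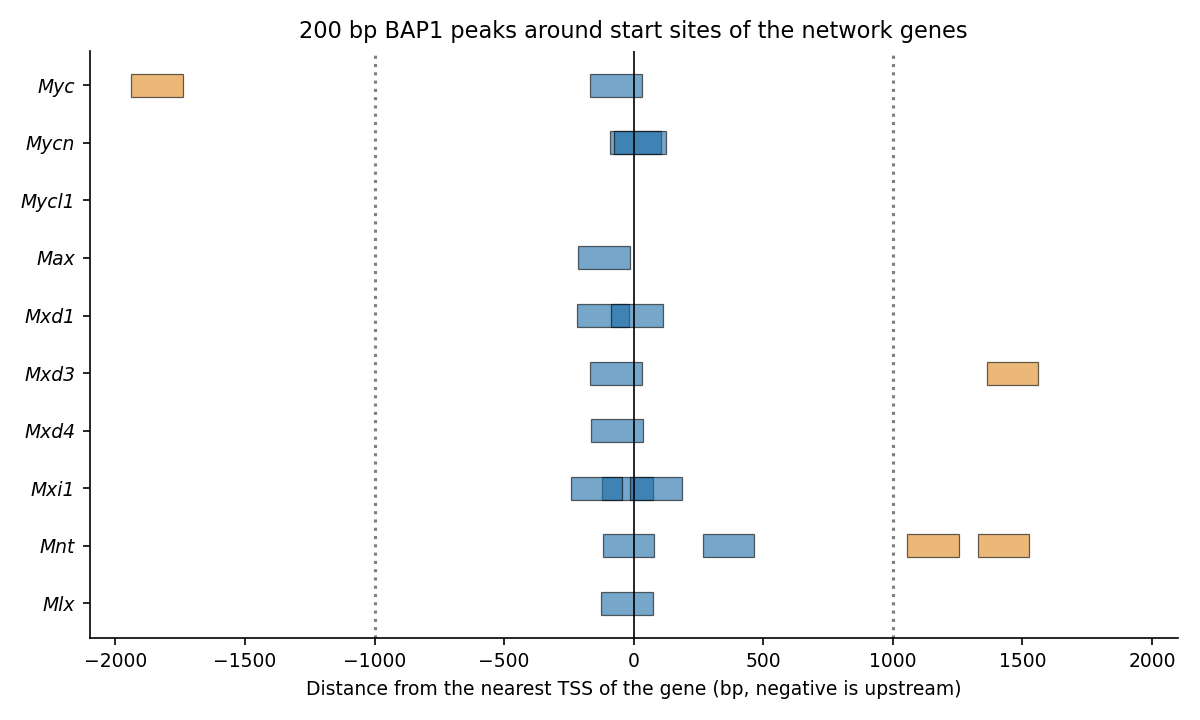
Each box is a 200 bp BAP1 peak, placed by the distance in bp of its middle from the nearest TSS of the gene, and boxes in blue are gene-proximal while boxes in orange are not. The dotted lines mark 1 kb on either side, 13 of the 14 blue middles fall within 150 bp of the solid line at the TSS, and the remaining one is the Mnt peak at 366 bp.

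Of the MYC family, Myc (ENSMUSG00000022346.8, chr15:61816946-61821929, plus strand), the general growth regulator of the family, had 1 gene-proximal peak. It spanned chr15:61816953-61817152, in the noncoding part of the first exon, with its middle 106 bp downstream of the first TSS and 67 bp upstream of the second. Myc is known to be transcribed from a pair of neighbouring promoters, and the annotation has TSSs at 61816946, at 61817119 (173 bp downstream) and at 61817177 (231 bp downstream). The peak thus lay across the stretch between the first TSS and the second. A further peak at chr15:61815007-61815206 was centred 1840 bp upstream of the first TSS, beyond the gene-proximal limit and nearer to Myc than to any other gene. Its GC content was 49.0% and its CpG ratio, the number of CpG dinucleotides over that expected from the base composition, was 0.443. In the promoter peak these were 59.5% and 0.858. The sequence of the upstream peak holds a GC box, a CCAAT site and an ACTACA core.
Myc, upstream: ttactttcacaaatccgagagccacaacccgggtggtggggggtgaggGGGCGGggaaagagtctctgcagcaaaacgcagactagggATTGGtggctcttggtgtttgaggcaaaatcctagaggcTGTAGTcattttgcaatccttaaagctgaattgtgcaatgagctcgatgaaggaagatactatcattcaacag

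Beyond these peaks the Myc locus was sparse. Only 6 peaks were listed within 2 Mb of the first Myc TSS, at -1.8, 0.1, 647.0, 1216.8, 1672.6 and 1876.5 kb, and 8.05% of protein-coding genes had as few. The 4 far ones all lay downstream of Myc, on the side known to hold distant blood cell enhancers of Myc, and none was gene-proximal. Enhancer positions were not set against these 4 peaks, so a link of the peaks to Myc was not tested. The nearest annotated TSSs to them were those of AC134453.1 (a miRNA, 20630 bp), a U7 small nuclear RNA (279101 bp), Gsdmc (146372 bp) and Gsdmc3 (7415 bp). The count within 1 Mb was 3, against a median of 15.0 over protein-coding genes.

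Mycn (ENSMUSG00000037169.8, chr12:12942902-12948720, minus strand), the family member of neural and early B lineage cells, had a pair of overlapping peaks at its first exon. Their middles lay 7 bp downstream of the first TSS (chr12:12948614-12948813) and 112 bp downstream of it (chr12:12948509-12948708), the latter 23 bp from a second TSS at 12948631 that belongs to a noncoding transcript. The peaks shared 95 bp. The third TSS of Mycn, at 12947422, had no peak within 1 kb and gives the same protein of 462 codons. The only other peak in reach, at chr12:12909387-12909586, was 33416 bp beyond the gene end and 40 bp upstream of the TSS of the lincRNA 4930519A11Rik. That interval had a CpG ratio of 0.0877, the lowest of the 36 intervals in reach of the 10 genes. Within 2 Mb of the first Mycn TSS 8 peaks were listed, which 12.3% of protein-coding genes equalled or fell below.

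Mycl1 (ENSMUSG00000028654.7, chr4:122672895-122679728, plus strand), which encodes L-MYC, had no peak within 1 kb of any of its 5 TSSs and none inside the gene. The nearest peak, at chr4:122693717-122693916, was 17234 bp downstream of its last TSS and 14088 bp beyond the gene end. It lay 24 bp upstream of the TSS of Trit1, a tRNA-modifying enzyme. The other, at chr4:122632715-122632914, lay at -40081 bp, upstream of Mycl1, inside Mfsd2a (a lipid transporter) and 4419 bp from the nearest TSS of that gene. Weaker binding that the peak caller did not list cannot be seen, and the depth is unknown, so the data show only that no peak was listed at Mycl1.

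Max (ENSMUSG00000059436.5, chr12:78038256-78063235, minus strand), the shared dimer partner, had 1 gene-proximal peak at chr12:78063251-78063450, centred at -115 bp from its first TSS and at -338 bp from the other. The peak ended short of the first exon, and it was the only one in the gene or within 50 kb of it. With 3 ACTACA cores in 200 bp it held more copies of that motif than the other 13 gene-proximal peaks, none of which had over 1. Only 1 of the 3 had the longer form of the element, given with the motif counts below. The Max peak had no E-box CACGTG and no GC box.

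The MXD and MNT repressors had 9 of the 14 gene-proximal peaks. Mxd1 (ENSMUSG00000001156.7, chr6:86597038-86619153, minus strand), a MYC antagonist of differentiating cells, had peaks centred 14 bp downstream (chr6:86619040-86619239) and 118 bp upstream (chr6:86619172-86619371) of its only TSS, sharing 68 bp. These were among the most GC-rich of the 14, at 79.5% and 78.5%. Mxd3 (ENSMUSG00000021485.7, chr13:55426529-55431119, minus strand), the MXD protein known from the S phase of dividing cells, had a peak 67 bp upstream of its first TSS at chr13:55431087-55431286. A second peak, at chr13:55429152-55429351, lay in an intron of Mxd3, 1868 bp downstream of the first TSS and 1462 bp from the nearest one. Its CpG ratio was 0.143, against 0.682 in the promoter peak, and it held none of the motifs searched, apart from the loose E-box form CANNTG. Mxd4 (ENSMUSG00000037235.7, chr5:34516536-34530369, minus strand), which is expressed in many resting tissues, had 1 gene-proximal peak 65 bp upstream of its first TSS, at chr5:34530335-34530534.

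Mxi1 (ENSMUSG00000025025.7, chr19:53384996-53450300, plus strand), a MAX interactor that recruits SIN3, had gene-proximal peaks only at its internal TSSs. Its first TSS, at 53384996, starts a transcript with 295 codons and had no peak within 1 kb, the nearest being 2685 bp downstream. The second TSS, at 53403903 and 18907 bp further on, starts a transcript with 228 codons. It had overlapping peaks centred 24 bp upstream (chr19:53403780-53403979) and 87 bp downstream (chr19:53403891-53404090). The third, at 53404936 with 192 codons, had a peak 144 bp upstream (chr19:53404693-53404892). The start sites of the shorter Mxi1 proteins therefore had peaks and that of the longest did not. In an intron of the longest transcript 2 further peaks lay 2685 and 3795 bp downstream of the first TSS (chr19:53387582-53387781 and chr19:53388692-53388891), with CpG ratios of 0.654 and 0.758. With only the most upstream TSS of each gene, Mxi1 had no gene-proximal peak and the count fell to 8 of 10 genes. Counted that way, 37.5% of protein-coding genes and 24.9% of all annotated genes had one.

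Mnt (ENSMUSG00000000282.6, chr11:74644422-74659227, plus strand), the most widely expressed of the MYC antagonists, had a peak 20 bp upstream of its first TSS (chr11:74644303-74644502). A further 3 peaks lay in its introns, 1427 bp (chr11:74645750-74645949), 6914 bp (chr11:74651237-74651436) and 7703 bp (chr11:74652026-74652225) downstream of the first TSS. The middle one of these counted as gene-proximal only through an internal TSS at 74650970, 366 bp upstream of it, from which a protein-coding transcript is annotated. The annotated coding part of that transcript is 622 bp, which is not a whole number of codons, so it may be incomplete. The transcript from the first TSS has 591 codons. All 3 intronic peaks were GC-rich, at 73.0 to 73.5%, with CpG ratios of 0.629 to 0.926, and each had at least 3 GC boxes. The peak at 6914 bp also held a full cAMP response element, found in 3.35% of all gene-proximal peaks. Another stood in the intronic peak 3795 bp downstream of the first Mxi1 TSS. The Mnt peak at 1427 bp held a second Mnt E-box. No other gene of the 10 had as many peaks inside it, apart from Mxi1 with 5.
Mnt, intronic: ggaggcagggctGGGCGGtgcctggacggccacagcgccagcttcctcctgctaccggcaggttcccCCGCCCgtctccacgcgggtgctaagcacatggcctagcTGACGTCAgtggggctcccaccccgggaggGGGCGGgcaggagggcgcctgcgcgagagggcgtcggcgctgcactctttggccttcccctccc

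Mlx (ENSMUSG00000017801.9, chr11:100948591-100953521, plus strand), the MAX-like protein of the network, had 1 gene-proximal peak 26 bp upstream of its first TSS (chr11:100948466-100948665). The 5 other peaks in reach belonged to the starts of neighbours. They lay 4 bp from the TSS of Coasy (coenzyme A synthesis), 3 bp from that of Psmc3ip (meiotic recombination), 130 bp from that of Naglu (a lysosomal enzyme), and on either side of a TSS of Fam134c, 52 bp downstream and 13 bp upstream. The TSS of Tubg1 (gamma tubulin) was also within 1 kb of the Fam134c pair.

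All 10 genes had at least 1 peak inside the gene or within 50 kb, as did 55.1% of all annotated genes and 65.6% of protein-coding genes. The 36 peaks in reach were all distinct. Besides the 14 gene-proximal ones there were 22 others, of which 14 lay within 1 kb of the TSS of another gene and 8 beyond 1 kb of every annotated TSS. Of those 8, 5 lay in introns of Mxd3, Mxi1 and Mnt, 1 was the Myc peak at -1840 bp, 1 lay in Mfsd2a, and 1 lay 45729 bp beyond the end of Mxi1 (chr19:53495930-53496129), with the TSS of the lincRNA 5830416P10Rik 25775 bp away. The remaining neighbours whose TSS was nearest to a peak were Snrnp27 for Mxd1, Lman2, Prelid1 and Rab24 for Mxd3, Poln for Mxd4 and Smndc1 for Mxi1. Of all 36, 20 had the TSS of the network gene itself as the nearest.

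The number of peaks around each gene followed no single level. Within 1 Mb of the most upstream TSS there were 3 peaks at Myc, 7 at Mycn, 11 at Mycl1, 15 at Max, 20 at Mxi1, 26 at Mxd1, 29 at Mxd4, 36 at Mnt, 38 at Mxd3 and 51 at Mlx. The median over protein-coding genes was 15.0, so the 3 MYC family genes lay below it, Max lay at it, and the 5 repressors and Mlx lay above it. As few peaks as at Myc were found at 11.9% of protein-coding genes, and as few as at Mlx or fewer at 92.3%. This split by role did not hold within 2 Mb, where the median was 27.0. There Max (21) and the repressor Mxi1 (24) lay below it, with Myc (6), Mycn (8) and Mycl1 (26). The other repressors and Mlx lay above it. Gene density was not set against these counts, so its part in them was not tested.

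**Figure D3:**
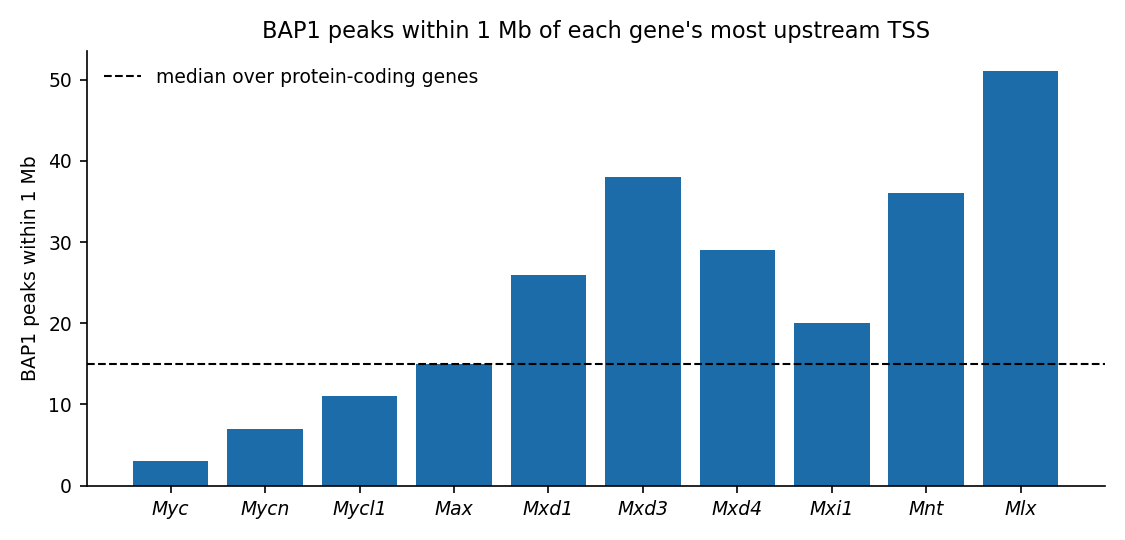
Bars give the number of listed BAP1 peaks within 1 Mb on either side of each gene's most upstream TSS, and the dashed line is the median over protein-coding genes, 15.0. The bars run from 3 peaks at Myc to 51 at Mlx, with the 3 MYC family genes below the line.

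The gene-proximal peaks of the network were CpG-rich like those of the whole list. Their CpG ratios ran from 0.621 to 1.15 with a median of 0.862 and their GC content from 58.0 to 79.5% with a median of 69.2%. Over all 10073 gene-proximal peaks the median CpG ratio was 0.876, with quartiles of 0.731 and 1.00, and the median GC content was 67.0%. The 22 other peaks in reach had a median CpG ratio of 0.766. The 3091 peaks of the list that were not gene-proximal to any gene had a median of 0.340, with quartiles of 0.155 and 0.632. The Myc upstream peak, the Mfsd2a peak, the Mxd3 intronic peak and the peak beyond Mxi1, at 0.443, 0.481, 0.143 and 0.291, lay between those quartiles or below them, while the other 4 intronic peaks that were not gene-proximal, those of Mnt and Mxi1, lay at 0.638 to 0.926, above the upper one.

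**Figure D4:**
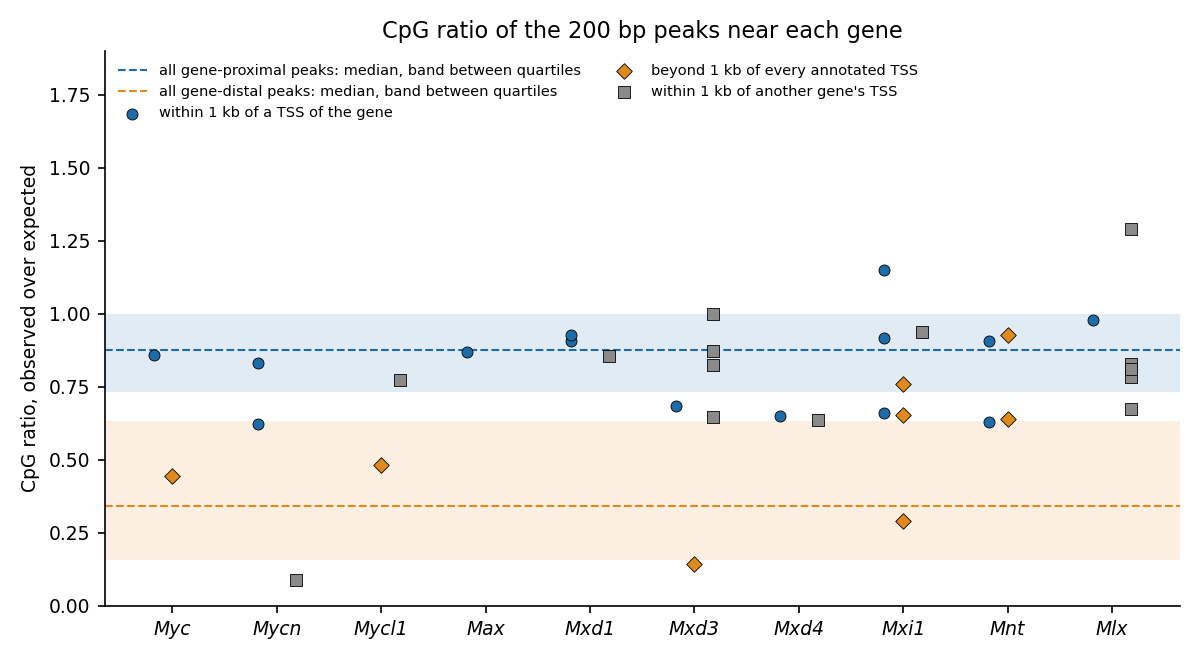
CpG ratio, observed over expected, of each 200 bp peak in reach of the 10 genes, with dashed lines at the medians of all gene-proximal peaks (0.876) and all other peaks (0.340) and bands between their quartiles. The circles, which are the network's gene-proximal peaks, run from 0.621 to 1.15, and the lowest points are the Mycn downstream peak at 0.0877 and the Mxd3 intronic peak at 0.143.

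The GC box was the most frequent motif in the 14 gene-proximal peaks, present in 11 of them at 6 genes, against 68.6% of all gene-proximal peaks. The ACTACA core stood in 5 of 14, at Max, Mlx, Mnt, Mxi1 and Myc, against 6.57% of all gene-proximal peaks. These 6 letters were nearly as frequent, at 5.56%, in the listed peaks that were not gene-proximal. The longer form of that element, ACTACA followed by any 2 bases and TCCCA, was in 2 of the 14, at Max and Mxi1. It was in 2.64% of all gene-proximal peaks and in 0.841% of the others. This longer form was added after the sequences had been seen. The E-box CACGTG was in 2, at Mlx and Mnt, against 8.06%. These exact letters were absent from the gene-proximal peaks of Myc, Mycn, Max and the 4 MXD genes. With each peak widened to 400 bp, an E-box was found in 5 of the 14, at Max, Mlx, Mnt, Mxd3 and Mxd4, against 12.4% of all. The looser form CANNTG, which also counts every CACGTG, was in 8 of 14, at Mlx, Mnt, Mxd4, Mxi1, Myc and Mycn, against 41.3%.

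An E2F site was found in 2 of the 14, at Myc and Mycn, and in 2.29% of all gene-proximal peaks. CCAAT was in 4, at Mlx, Mxd4 and both Mxd1 peaks (30.0% of all), and the YY1 site was in 1, at Mnt (5.08%). The ETS site was in none of the 14 (20.2%), nor were the NRF1 site (2.48%) and the PU.1 site (2.07%). In the 22 other peaks in reach the ETS site was found in 6, all at the starts of neighbouring genes. With 14 intervals, of which the Mycn, Mxd1 and Mxi1 pairs share sequence, these counts are descriptions of the letters and were not tested. They do not show that a factor was bound.

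Genes that work with the network were counted in the same way, on lists that were also chosen with earlier results of these data known. Of the wider network, Mga, a large MAX partner, and Mlxip, which encodes the MONDO protein MondoA, had 2 gene-proximal peaks each, the nearest at 11 and 28 bp. Mlxipl, which encodes the carbohydrate response factor ChREBP, had its nearest peak at 12682 bp, Bmyc, a short MYC relative, at -84144 bp and Mycs, an intronless one, on chromosome X at 1553523 bp. That made 2 of 5, against the 39.6% of protein-coding genes given above.

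The listed cofactors, corepressors and turnover enzymes of the network all had a gene-proximal peak, 25 of 25 genes. Among protein-coding genes 39.6% had one, and among all annotated genes 26.2%. The 25 genes included the acetyltransferase scaffold Trrap, with a peak 1 bp upstream of a TSS, the ubiquitin ligase Huwe1, at -1 bp, and the acetyltransferase Kat2a, at 4 bp. The corepressors Sin3a (-42 bp) and Sin3b (53 bp), through which the MXD proteins and MNT act, had 2 gene-proximal peaks each, as did Hcfc1 (-70 bp), the gene of the BAP1 partner HCF1. In this list 8 of the 25 genes had 2 or more. Among protein-coding genes with at least 1 such peak, 25.5% had 2 or more. The farthest was Fbxw7, the ubiquitin ligase that turns MYC over, at -812 bp. In the absolute distance of the nearest peak the median was 42.0 bp in this group and 45.5 bp in the 10 network genes.

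Of the listed textbook MYC targets 29 of 32 had a gene-proximal peak, against 39.6% of protein-coding genes and 26.2% of all annotated genes. The nearest were at the serine metabolism enzyme Shmt2 (0 bp), the nucleolar protein Npm1 (3 bp) and the pyrimidine synthesis enzyme Cad (-3 bp). Ubtf, a factor of RNA polymerase I, had 6 gene-proximal peaks, the largest number in these lists. The targets without one were Tert (nearest peak -23046 bp), Eif4e (1062 bp) and Mrto4 (-27860 bp). Cdkn1a and Gadd45a, which MYC is known to repress, had peaks at -101 and -40 bp. Most genes of these lists serve growth and chromatin in nearly all cells. Their expression was not measured here, and its part in the counts was not tested.

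**Figure D5:**
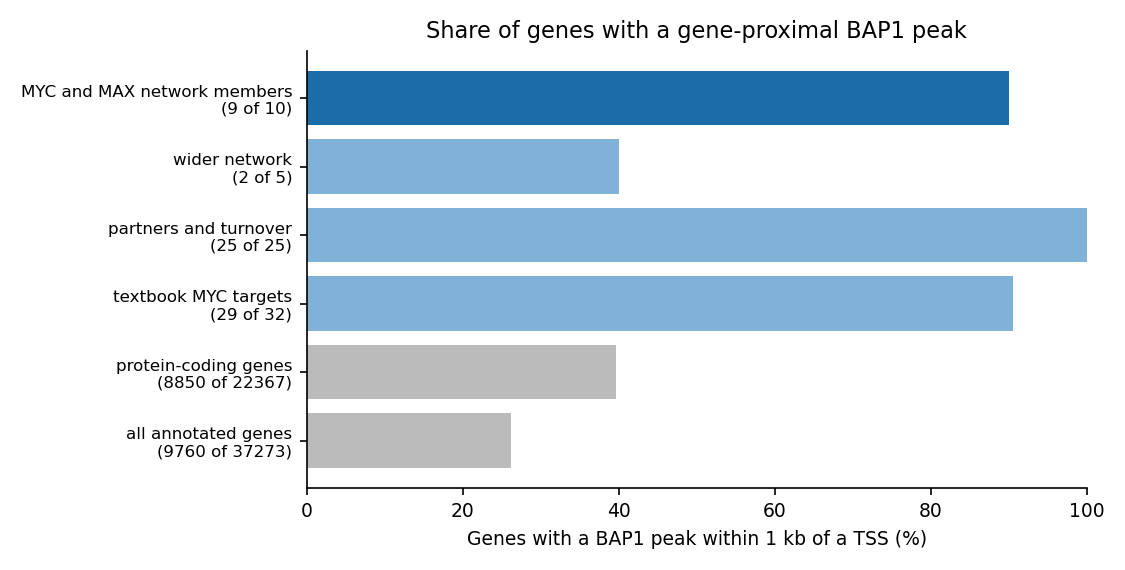
Bars give the share, in percent, of the genes of each list with a BAP1 peak within 1 kb of a TSS, and the counts stand beside the names. The network (9 of 10), its partners (25 of 25) and the textbook targets (29 of 32) lie above the grey bars of protein-coding genes (39.6%) and all annotated genes (26.2%), while the wider network (2 of 5) lies near the former.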

How the data were processed

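BAP1 ChIP-Seq was analysed in 2 samples, the anti-BAP1 precipitation of wild-type Ba/F3 cells and the anti-FLAG precipitation of Ba/F3 cells expressing tagged BAP1, grouped by their labels. Per the labels and methods, the authors aligned reads to mm9 (Bowtie 1.0.0), and MACS (1.4.2 in the submitters' processing notes) was run with input DNA as control. The deposited list holds only peak positions in bp, merged over both samples, with no score or p-value. The threshold and the rule that combined the samples are not given in the sources used here. The effect of another threshold was not tested. Peaks were placed on GENCODE M1 without mitochondrial genes, using all annotated TSSs, with Python 3.11.15, pandas 2.3.3 and numpy 2.4.6. No peak ran past the end of its chromosome. Motifs were searched on both strands. The scripts were tested on simulated peaks. The 10 genes, the partner and target lists and the alternatives were chosen with earlier results of these data known. All 10 genes and the wider network are named, and of the other lists the genes without a peak and the 3 nearest, while Sin3a, Sin3b, Hcfc1, Fbxw7, Ubtf, Cdkn1a and Gadd45a were named after their values were seen. No test was made, since there is 1 list and no replicate.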

Additional observations from a re-analysis of the deposited data

How the results depend on the processing

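Of 43 counts under an alternative, 39 were within 1.5 times the reported one. The 4 that moved were motif counts over the 14 gene-proximal peaks. With the interval widened by 100 bp on each side, the E-box count went from 2 to 5 and the ETS count from 0 to 1. With CANNTG the E-box count was 8, and with the extended motif, an alternative chosen after seeing the data, the Ronin/HCF1 count went from 5 to 2. Each of these follows from the longer interval or the letters used. Genes with a gene-proximal peak stayed at 9 of 10 with windows of 500 bp, 2 kb and 5 kb, with peak edges, with coding TSSs and with peaks merged, and were 8 with 1 TSS per gene, where Mxi1 was lost. Over the same settings the share of protein-coding genes ran from 37.5% with 1 TSS per gene to 42.5% at 5 kb. The share of all annotated genes ran from 23.6% with coding TSSs to 30.1% at 5 kb. The gene-proximal peaks numbered 10 with 1 TSS per gene, 11 merged, and 14 to 21 otherwise. Peaks in reach numbered 29 at 20 kb and 51 at 100 kb. Of 30 nearest distances under an alternative 23 did not change, and Myc, for example, went from -67 to 106 bp with 1 TSS per gene. No paired analysis was possible because the samples enter as 1 combined list with no replicate and no test, so leaving out a replicate could not be tried. A stricter peak threshold was not tried, since the deposited list has no score, and peak intensities from the study's supplement were not used here. Depth is unknown, and a gene with no listed peak may have a weaker signal.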

Other observations

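The combined list follows the distance of its peaks from a start site, as the study ordered its sites, with TSSs taken from the UCSC annotation of mm9. In the first 1000 entries the median distance to the nearest GENCODE TSS was 8.0 bp, in entries 5001 to 6000 it was 72.0 bp, and in entries 13001 to 13164 it was 144034.5 bp. The Max peak at -115 bp, for example, stood among entries with a median of 107.0 bp. The 2 Mnt peaks furthest into the gene were placed otherwise. They were 366 and 1155 bp from the nearest GENCODE TSS, but their list neighbours had medians of 6587 and 7307 bp, close to the 6914 and 7703 bp that separate these peaks from the first Mnt TSS. Likewise the Mycn downstream peak, 40 bp from the TSS of the lincRNA 4930519A11Rik, stood among entries with a median of 29596 bp. Smaller differences were seen at some other peaks. For example, the Mycn peak at 7 bp stood among entries with a median of 70.0 bp. The Myc peak at -67 bp stood among entries with a median of 152.0 bp. The UCSC annotation was not used here, so whether it lacks the internal Mnt TSS and the lincRNA was not tested.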
